A study of Mus musculus with 4 samples.

Results

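The genes described here are the LIM homeobox genes Lhx2, Lhx9 and Isl1 and the cofactor genes Ldb1 and Ldb2, 5 of the 17712 genes in the deposited table. They were chosen by name, with earlier results of these data known, and all 5 passed the filter on low values. LIM homeobox genes encode transcription factors in which a pair of LIM domains, zinc-binding modules that contact other proteins, stands ahead of a DNA-binding homeodomain. Their LIM domains bind LDB proteins, which dimerise and so join DNA-bound factors to each other, and LIM-only (LMO) proteins, which lack a homeodomain, bind the same LDB surface. In the mouse limb bud, Lhx2 and Lhx9 are mesenchymal genes that act together with Lmx1b in outgrowth and patterning, between the fibroblast growth factors of the apical ridge and Shh in the posterior mesenchyme. Isl1 is known for its role in starting the hindlimb, in motor and sensory neurons and in heart progenitors.

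RNA was sequenced from forelimbs of Swiss Webster mouse embryos, an outbred stock, of the genotype Shh null (2 libraries) and of littermates labelled wild type (2 libraries). The embryos had 33 to 35 somites, and the labels place them at embryonic day 10.5 in one field and at 10.25 in another. Shh encodes Sonic hedgehog, the signal of the posterior limb margin; the labels do not describe the null allele. The series' text calls the replicates technical, and none is tied to a separate animal by its labels. The p-values given here therefore reflect variation among these libraries, which may be technical.

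The libraries held 23206944 and 21489093 reads in Shh null and 29620468 and 18456502 in wild type. Values are CPM, reads scaled to library size. Shh itself stood at 3.15 and 2.42 CPM in Shh null and at 11.4 and 7.88 CPM in wild type, in the direction of the labels. The groups also differed in sex-linked genes, with Xist at 522 and 468 CPM in Shh null and at 225 and 152 CPM in wild type. At a limma adjusted p under 0.05, Xist was higher and the other 4 sex-linked genes listed, all Y-linked, were lower. The part of this sex-linked difference in the results below was not tested. Forelimb markers were present in every library, Tbx5 at 80.2 and 65.0 CPM in Shh null and at 65.0 and 61.5 CPM in wild type. In whole forelimbs, fewer cells of a type and less RNA per cell cannot be told apart.

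The start regions of the LIM homeobox genes are shown because Lhx2 and Lhx9 rose by similar factors while their available start regions are unlike in sequence. Each sequence runs from 250 bases before to 50 after a RefSeq start (GRCm38.p6, the assembly of mm10) and reads 5′ to 3′ on the gene's strand. The first Lhx2 region is chr2:38339031-38339330 on the plus strand and the second chr2:38351058-38351357 on the plus strand. The Lhx9 region is chr1:138842395-138842694 on the minus strand and the Isl1 region chr13:116309639-116309938 on the minus strand. The Lhx9 start used, 138842444, lies inside the gene, whose annotated 5′ end is at 138848577. The second Lhx2 start also lies inside its gene, while the first Lhx2 and the Isl1 starts lie at annotated 5′ ends. No window at the Lhx9 5′ end was among the promoters used. Capitals mark matches, on either strand, to any of 5 motifs described after the sequences.
Lhx2, first start: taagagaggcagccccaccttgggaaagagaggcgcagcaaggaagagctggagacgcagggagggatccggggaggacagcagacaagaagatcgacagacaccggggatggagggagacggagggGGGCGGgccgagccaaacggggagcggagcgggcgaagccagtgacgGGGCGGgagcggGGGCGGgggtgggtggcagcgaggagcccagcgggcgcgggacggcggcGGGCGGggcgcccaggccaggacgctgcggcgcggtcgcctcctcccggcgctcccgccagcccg
Lhx2, second start: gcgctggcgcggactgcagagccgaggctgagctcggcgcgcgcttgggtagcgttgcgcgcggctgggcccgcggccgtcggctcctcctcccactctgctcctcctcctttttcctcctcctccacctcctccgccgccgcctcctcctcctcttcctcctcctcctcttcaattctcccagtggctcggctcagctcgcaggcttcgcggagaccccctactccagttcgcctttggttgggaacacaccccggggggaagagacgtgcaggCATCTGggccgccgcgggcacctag
Lhx9: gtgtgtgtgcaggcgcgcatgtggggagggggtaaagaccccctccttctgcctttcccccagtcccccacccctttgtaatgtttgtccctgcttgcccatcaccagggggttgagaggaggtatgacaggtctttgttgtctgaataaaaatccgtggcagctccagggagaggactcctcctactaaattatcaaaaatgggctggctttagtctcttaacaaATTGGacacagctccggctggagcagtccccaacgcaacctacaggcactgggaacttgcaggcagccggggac
Isl1: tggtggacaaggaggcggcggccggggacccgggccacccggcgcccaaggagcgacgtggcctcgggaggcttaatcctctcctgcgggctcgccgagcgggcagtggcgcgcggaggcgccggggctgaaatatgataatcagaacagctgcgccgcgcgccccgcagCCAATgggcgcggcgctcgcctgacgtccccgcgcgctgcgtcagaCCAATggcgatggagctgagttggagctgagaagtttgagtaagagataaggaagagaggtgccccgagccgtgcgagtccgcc

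The motifs searched were the GLI site TGGGTGGTC, the E-box CATCTG, the homeodomain core TAATTA, the GC box GGGCGG and the CCAAT box CCAAT, each with its reverse complement. The first Lhx2 region held 4 GC boxes and the second 1 E-box. The Lhx9 region held 1 CCAAT box, read on the opposite strand, and the Isl1 region held 2 on its own strand. Of 32851 mouse promoters of this length, 35.7% held a GC box, 37.4% a CCAAT box, 17.2% this E-box, 5.29% the homeodomain core and 0.253% the GLI site. The GLI site and the homeodomain core had no match in these 4 windows, which says only that those letters are not there. The Lhx2 regions were 74.7% and 69.3% G or C with 34 and 29 CpG dinucleotides, the Isl1 region 69.0% with 37, and the Lhx9 region 55.3% with 6. The Lhx9 figures come from an internal start, those of the first Lhx2 and the Isl1 regions from 5′ ends. The median promoter held 52.7% G or C and 7 CpG. A motif match is a description of letters and not a bound site.

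Lhx2 and Lhx9 were higher in Shh null forelimbs, each by about the same factor, Isl1 and Ldb2 had higher values without passing the test, and Ldb1 had overlapping groups. Of the 5 genes, limma called 2 higher, 0 lower, and left 3 uncalled (Benjamini-Hochberg adjusted p under 0.05 over 13224 tested genes). Over all tested genes it called 1.24% higher, 1.24% lower and 2.48% in either direction. The lower count was also 0 in edgeR (1.12% of tested genes lower, 2.45% in either direction) and in DESeq2 (2.06% lower, 3.98% in either direction). At an unadjusted p under 0.05, limma had 4 of the 5 higher and 0 lower, against 9.50% and 9.02% of tested genes. The authors' deposited table has Lhx2, Lhx9 and Isl1, 3 of the 5, higher at a false discovery rate under 0.05, as were 2.33% of its matched genes. Both Shh null libraries were above both wild-type libraries for 4 of the 5 genes, as for 25.1% of tested genes. The median log2 fold change of the 5 genes was 0.59, beside −0.00048 over all tested genes. Log2 fold changes were fitted to log2(CPM + 1), so changes of low genes are understated; folds are ratios of mean CPM. With 2 libraries a group, the smallest two-sided p of an exact permutation test is 0.333.

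**Figure D1:**
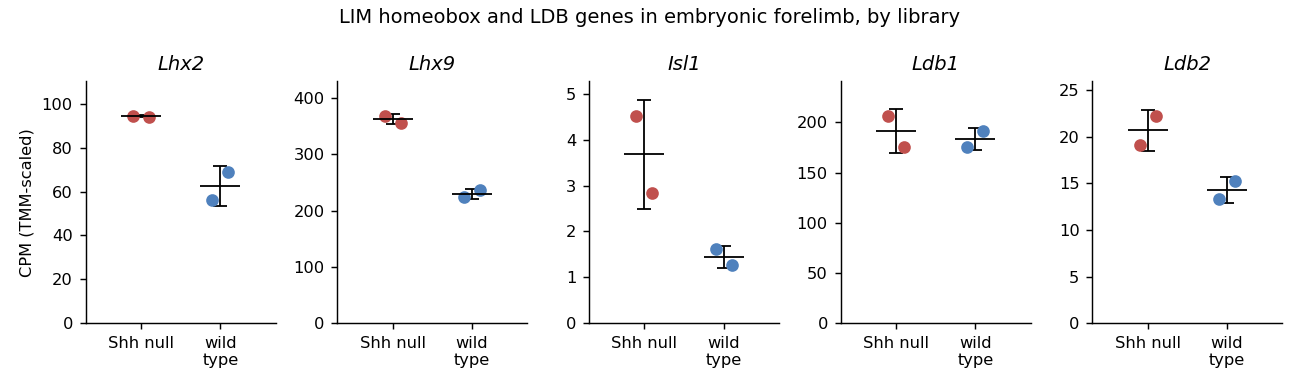
Each panel plots 1 gene in CPM on an axis from 0, with 1 point per library (Shh null left, wild type right) and the mean ± SD (n = 2) in black. Lhx2, Lhx9, Isl1 and Ldb2 have both Shh null points above both wild-type points, and the Ldb1 points overlap.

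Lhx9 was the most clearly changed member. The gene lies on chromosome 1, 138825186 to 138848577, minus strand (mm10, GENCODE M21). It was measured at 369 and 356 CPM in Shh null and at 224 and 237 CPM in wild type, from 8891 and 7793 reads in Shh null and 6387 and 4295 reads in wild type. The groups were far apart relative to the spread within each. Means were 363 ± 8.65 CPM in Shh null and 230.4 ± 8.82 CPM in wild type (SD, n = 2 each), a 1.57-fold difference. The log2 fold change was 0.65 ± 0.095 (SE; 95% interval 0.44 to 0.86; limma adjusted p = 0.00772). A rise this large was exceeded by 2.12% of tested genes. Leaving out Shh null 1 ended the call (log2 fold change 0.63), as did leaving out Shh null 2 (0.68). In such fits, here and below, 1 library stands for its group, so calls depend on which group supplies the spread. Over all tested genes, fewer were called without a Shh null library and more without a wild-type library. The authors' deposited table gives Lhx9 a log2 fold change of 0.65 with a false discovery rate of 4.28e-05.

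Lhx2 rose alongside it. The gene is on chromosome 2, 38339281 to 38369733, plus strand. It had 94.5 and 93.8 CPM in Shh null, against 56.3 and 69.0 CPM in wild type. The Shh null libraries were almost equal and the wild-type libraries differed more from each other, without reaching the Shh null values. Means were 94.2 ± 0.488 CPM in Shh null and 62.6 ± 8.99 CPM in wild type (SD, n = 2 each), a 1.5-fold difference. The log2 fold change was 0.59 ± 0.12 (SE; 95% interval 0.33 to 0.85; limma adjusted p = 0.0315). The call ended when any library but wild type 2 was left out, with adjusted p = 0.0734 without wild type 1, 0.267 without Shh null 1 and 0.130 without Shh null 2. Without wild type 1 the log2 fold change was 0.44. It also ended when all genes were tested with no filter (adjusted p = 0.0638). The authors' deposited table gives a log2 fold change of 0.59 with a false discovery rate of 0.00225. Reads from antisense transcripts annotated across Lhx2 cannot be told apart from its own, as the strand setting is not given in the sources used here.

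The balance between Lhx2 and Lhx9, close relatives with overlapping roles, differed between groups by less than the spread of the wild-type libraries. Per kilobase of exon, Lhx2 stood at 0.554 and 0.569 of the Lhx9 level in the Shh null libraries and at 0.542 and 0.630 in the wild-type libraries. The Shh null ratios fell between the wild-type ratios. The log2 ratio differed by −0.059 (exact two-sided permutation p = 1), with SDs of 0.027 in Shh null and 0.15 in wild type.

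Lhx2 and Lhx9 are expressed in the limb mesenchyme, and some of its markers were also higher. Of 6 tested markers, limma called 3 higher and 1 lower and left 2 uncalled, with a median log2 fold change of 0.58. Their summed level was 1130 and 1110 CPM in Shh null and 776 and 799 CPM in wild type, and no marker was at 0 in any library. Most of each sum was Prrx1, at 654 and 613 CPM in Shh null and at 431 and 468 CPM in wild type. The uncalled markers were Tbx5 (log2 fold change 0.19, limma adjusted p = 0.440) and Msx1 (0.69, adjusted p = 0.116). Twist1, a helix-loop-helix factor gene of the mesenchyme, was at 276 and 309 CPM in Shh null and at 181 and 181 CPM in wild type (1.62-fold, limma adjusted p = 0.00723). Prrx1 and Prrx2, paired-type homeobox genes, were 1.41-fold and 1.6-fold higher (adjusted p = 0.0370 and 0.0213). Fgf10, the mesenchymal growth factor gene that maintains the ridge, was lower instead, at 14.2 and 14.6 CPM in Shh null and at 24.8 and 30.2 CPM in wild type (adjusted p = 0.0126). None of these 4 calls survived the loss of Shh null 1 (adjusted p = 0.0538 for Twist1, 0.296 for Prrx1, 0.215 for Prrx2 and 0.162 for Fgf10) or of Shh null 2 (0.0749, 0.107, 0.122 and 0.0810 in the same order). That of Prrx1 also ended without wild type 1 (adjusted p = 0.107) and with the replicate block (0.0661). With no filter the Prrx1 and Prrx2 calls ended (0.0870 and 0.0514). The 7 surface ectoderm markers summed to 333 and 345 CPM in Shh null and to 303 and 295 CPM in wild type; 0 were called by limma, edgeR or DESeq2, while limma's unadjusted p was under 0.05 for 2, both with positive differences. The part of the mesenchymal share in the Lhx2 and Lhx9 results was not tested.

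Isl1 had the largest fold of the 5 genes and the fewest reads. The gene is on chromosome 13, 116298281 to 116309689, minus strand. It was measured at 4.52 and 2.84 CPM in Shh null and at 1.61 and 1.27 CPM in wild type. These values rest on 109 and 62 reads in Shh null and on 46 and 23 reads in wild type. The groups did not overlap, but the Shh null libraries lay farther apart than the wild-type libraries. Means were 3.68 ± 1.19 CPM in Shh null and 1.44 ± 0.246 CPM in wild type (SD, n = 2 each), 2.55-fold apart. The ratio over pooled reads was 2.51 with a 95% exact binomial interval of 1.89 to 3.38, which covers counting error only. The log2 fold change of 0.92 ± 0.22 (SE) missed the threshold (limma adjusted p = 0.0652). It passed with the replicate number as a block (0.0207), when wild type 1 was left out (0.0126) and when wild type 2 was (0.0471). It did not pass when Shh null 1 (0.448, log2 fold change 0.66) or Shh null 2 (0.0844, 1.18) was left out. The fitted difference ran from 0.42 with a pseudocount of 5 to 1.34 in edgeR. The authors' deposited table gives a log2 fold change of 1.34 and a false discovery rate of 0.00486.

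Markers of other tissues that use Isl1 were present at low levels, several of them above Isl1 itself. Of 9 motor neuron markers 5 were in the table and 2 passed the filter, with a summed level of 4.4 and 4.48 CPM in Shh null and of 6.46 and 4.90 CPM in wild type. The defining motor neuron genes Mnx1 and Lhx3 had 0 reads in both Shh null libraries, and 7 and 2 reads (Mnx1) and 2 and 2 reads (Lhx3) in wild type. Isl2, which motor and sensory neurons share with Isl1, was at 2.70 and 3.2 CPM in Shh null and at 4.81 and 3.75 CPM in wild type, and was not called (adjusted p = 0.276). Slc5a7, the choline transporter gene, was at 1.66 and 1.28 CPM in Shh null and at 1.33 and 0.881 CPM in wild type, and was not called (adjusted p = 0.591).

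The sensory neuron gene Pou4f1 passed the filter through wild type only, with 2 and 5 reads in Shh null and 49 and 21 reads in wild type. It was lower, at 0.0829 and 0.229 CPM in Shh null and at 1.72 and 1.16 CPM in wild type (limma adjusted p = 0.0330). That call was lost on leaving out Shh null 1 (0.282), Shh null 2 (0.109) or wild type 1 (0.0628) and with a pseudocount of 5 (log2 fold change −0.32, adjusted p = 0.0659, against −1.07). The gene was not tested where all 4 libraries had to reach 1 CPM. The 11 sensory neuron and neural crest markers, 9 of them in the table, summed to 20.1 and 17.8 CPM in Shh null and to 21.9 and 19.7 CPM in wild type. Of the 5 tested, only Pou4f1 was called by limma. The 7 heart and pharyngeal markers in the table were all below the filter and summed to 2.12 and 2.70 CPM in Shh null and to 1.09 and 6.50 CPM in wild type. The 4 hindlimb markers in the table summed to 6.01 and 5.08 CPM in Shh null and to 6.42 and 4.90 CPM in wild type, with neither of the 2 tested genes called by limma. Tbx4, a hindlimb T-box gene, was at 3.69 and 3.11 CPM in Shh null and at 4.53 and 3.69 CPM in wild type (adjusted p = 0.576). Hoxc9 was at 1.91 and 1.37 CPM in Shh null and at 1.37 and 0.937 CPM in wild type (adjusted p = 0.491). Below the filter, Pitx1 had 6 and 10 reads in Shh null and 1 and 2 reads in wild type, and Hoxc10 was at 0.166 and 0.137 CPM in Shh null and at 0.491 and 0.165 CPM in wild type. The summed levels of these tissues overlapped between the groups, except that both motor neuron sums were lower in Shh null. Most of each motor neuron sum was Isl2, which was not called. Slc5a7, the other tested motor neuron marker, differed in the opposite direction (log2 fold change 0.23, not called).

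Ldb1 encodes the broadly expressed LDB protein that bridges LIM homeodomain factors, and also GATA and LMO factors in blood cells. The gene is on chromosome 19, 46031570 to 46045214, minus strand. It was measured at 207 and 176 CPM in Shh null and at 175 and 191 CPM in wild type, so that the groups overlapped. Means were 191 ± 21.9 CPM in Shh null and 183 ± 10.9 CPM in wild type (SD, n = 2 each). The log2 fold change was 0.057 ± 0.11 (SE; 95% interval −0.19 to 0.30; limma adjusted p = 0.822). The sign turned when wild type 1 (−0.0033) or Shh null 1 (−0.059) was left out. Within libraries, Lhx9 stood at 0.866 and 0.985 of the Ldb1 level per kilobase of exon in Shh null and at 0.620 and 0.602 in wild type. The protein-coding gene Pprc1 overlaps Ldb1 by 329 bases on the opposite strand and was itself at 30.7 and 29.2 CPM in Shh null and at 31.1 and 40.5 CPM in wild type.

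Ldb2, the paralogue of Ldb1, was at a lower level. The gene is on chromosome 5, 44472132 to 44799680, minus strand. It was at 19.1 and 22.2 CPM in Shh null and at 13.3 and 15.3 CPM in wild type. Both Shh null libraries were above both wild-type libraries. Means were 20.7 ± 2.23 CPM in Shh null and 14.3 ± 1.39 CPM in wild type (SD, n = 2 each), 1.45-fold apart, but the difference was not called (log2 fold change 0.50 ± 0.14 SE, limma adjusted p = 0.108). The authors' deposited table also leaves it above 0.05 (false discovery rate 0.0723). Ldb2 is also known from endothelial cells. Of 8 endothelial markers 0 were called by limma, edgeR or DESeq2 and 0 had an unadjusted p under 0.05 in limma; they summed to 245 and 249 CPM in Shh null and to 208 and 269 CPM in wild type, so that the sums overlapped.

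**Figure D2:**
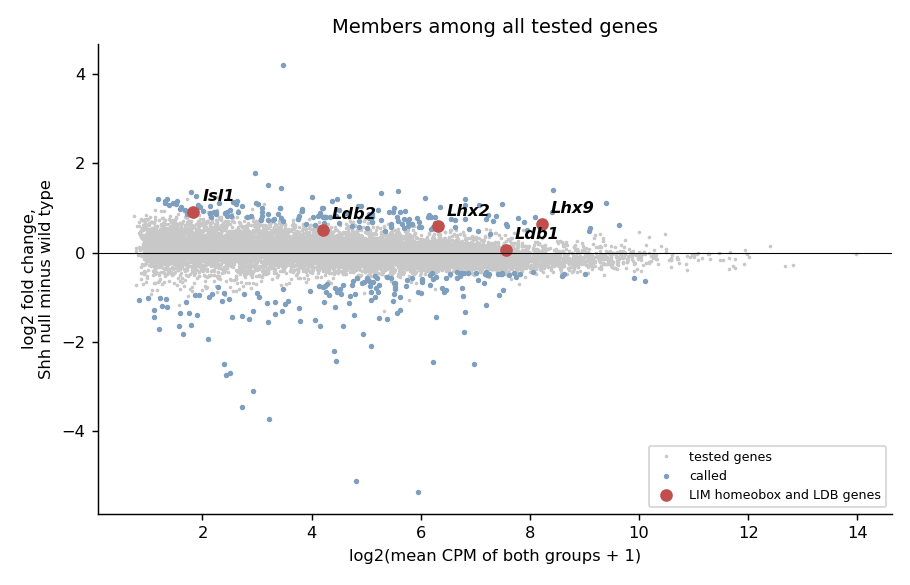
Every tested gene is plotted by log2(mean CPM of both groups + 1) on the x axis and by log2 fold change, Shh null minus wild type, on the y axis. Blue points are genes called by limma and red points are the 5 LIM homeobox and LDB genes, of which Lhx2 (0.59) and Lhx9 (0.65) were called and Ldb1 (0.057) lies nearest to 0.

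To compare levels between genes, CPM was divided by the length of the merged exons. In Shh null forelimbs the order was Ldb1 (41.5 ± 4.76 CPM per kb, SD, n = 2), Lhx9 (38.2 ± 0.911), Lhx2 (21.4 ± 0.111), Ldb2 (6.19 ± 0.669) and Isl1 (0.929 ± 0.301). In wild type the order was the same, with Ldb1 at 39.8 ± 2.37, Lhx9 at 24.3 ± 0.929, Lhx2 at 14.3 ± 2.05, Ldb2 at 4.28 ± 0.415 and Isl1 at 0.364 ± 0.062 CPM per kb. Neighbours in this order did not overlap in either group, apart from Ldb1 and Lhx9 in Shh null, where the Lhx9 libraries (38.8 and 37.5) and the Ldb1 libraries (44.8 and 38.1) did. By this measure Ldb1 was among the top 9.56%, Lhx9 the top 12.8% and Lhx2 the top 22.5% of 12443 tested genes with a length. Merged exons are longer than any 1 transcript. With the longest annotated transcript as the length, Lhx9 stood above Ldb1 in Shh null (73.4 ± 1.75 and 61.0 ± 7.0 CPM per kb) and below it in wild type (46.7 ± 1.79 and 58.4 ± 3.49).

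Set against the cofactors, the transcripts of the 3 LIM homeobox members took a larger part in Shh null. The summed level per kb of Lhx2, Lhx9 and Isl1 was 1.22 and 1.33 times that of Ldb1 and Ldb2 in the Shh null libraries and 0.875 and 0.890 times in the wild-type libraries. The ratios did not overlap (exact two-sided permutation p = 0.333, the smallest that these libraries allow). Most of this sum came from Lhx9 and Lhx2, with Isl1 at 0.0294 and 0.0191 of the Lhx9 level in Shh null and at 0.0173 and 0.0128 in wild type. The summed ratios thus restate the Lhx2 and Lhx9 rise beside Ldb1, whose groups overlapped, and are not a separate result. With the longest annotated transcript as the length, the LIM homeobox means summed to more than the cofactor means in wild type too. Which sum is larger in wild type therefore depends on the length used. The level of Ldb1 was 7.84 and 5.72 times that of Ldb2 in Shh null and 9.55 and 9.06 times in wild type.

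**Figure D3:**
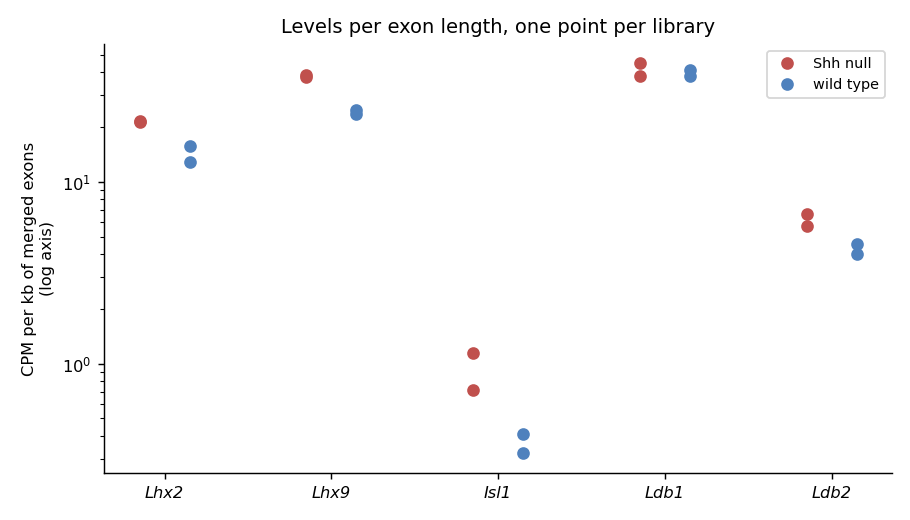
The y axis gives CPM per kb of merged exons on a log axis, with 1 point per library, Shh null left of wild type for each gene. Ldb1 and Lhx9 overlap in Shh null (38.1 to 44.8 and 37.5 to 38.8) and stand apart in wild type.

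The other LIM homeobox genes with values stood below Lhx2 and Lhx9 in CPM, and none was called by limma, edgeR or DESeq2. Of the 9 listed, 6 had values and 4 were tested, of which 0 were called and 0 had an unadjusted p under 0.05 in limma. Lhx1, Lhx4 and Lhx5 were not analysed here. The median log2 fold change of the 4 was 0.051. Isl2 (given above) and Lhx6 had the largest differences, Lhx6 with 1.24 and 1.10 CPM in Shh null and 0.421 and 1.21 CPM in wild type (adjusted p = 0.562). Lmx1b and Lmx1a are named after their values were seen. Lmx1b, which specifies dorsal limb identity, was at 13.1 and 11.4 CPM in Shh null and at 10.7 and 10.2 CPM in wild type (log2 fold change 0.20 ± 0.15 SE, adjusted p = 0.506). Lmx1a was at 3.48 and 5.49 CPM in Shh null and at 10.4 and 1.93 CPM in wild type, and its direction followed 1 library. Leaving out wild type 1 gave a call in the higher direction (log2 fold change 0.88, adjusted p = 0.0348), and leaving out wild type 2 one in the lower direction (−1.08, 0.00184).

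Among the genes whose products bind or regulate the same complex, a pair of LIM-only genes fell. Of 8 tested LIM-only, SSBP and Rlim genes, limma called 2 lower and 0 higher and left 6 uncalled, with a median log2 fold change of 0.10. Lmo2, known from blood and endothelial cells, was at 11.2 and 14.0 CPM in Shh null and at 26.4 and 21.5 CPM in wild type (log2 fold change −0.87 ± 0.16 SE, limma adjusted p = 0.0221). Lmo1, a close relative known from neural tissue and leukaemia, was at 12.9 and 12.5 CPM in Shh null and at 21.1 and 23.7 CPM in wild type (log2 fold change −0.77 ± 0.14 SE, adjusted p = 0.0191). Both calls were lost on leaving out Shh null 1 (adjusted p = 0.245 for Lmo2 and 0.172 for Lmo1) or Shh null 2 (0.0683 and 0.103), and with no filter (0.0617 and 0.0512). The authors' deposited table gives log2 fold changes of −0.93 and −0.82 with false discovery rates of 0.000186 and 0.000321.

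Blood markers are given beside Lmo2. The 8 blood markers summed to 2625 and 4261 CPM in Shh null and to 7261 and 1911 CPM in wild type, so that the sums overlapped. Most of each sum was the globin gene Hbb-y, at 2078 and 3509 CPM in Shh null and at 5694 and 1492 CPM in wild type. The part of blood cells in the Lmo2 result was not tested. Of the 8, 0 were called by limma, edgeR or DESeq2 and 0 had an unadjusted p under 0.05 in limma. None of the other cofactor genes was called by limma, edgeR or DESeq2. Lmo3, a further LIM-only gene, was at 3.44 and 3.52 CPM in Shh null and at 2.42 and 2.42 CPM in wild type (1.44-fold, limma adjusted p = 0.274). Ssbp3 was at 94.9 and 103 CPM in Shh null and at 88.7 and 58.0 CPM in wild type (1.35-fold). Ssbp2, whose product stabilises LDB proteins, was at 72.7 and 73.0 CPM in Shh null and at 72.7 and 71.9 CPM in wild type. Lmo4 was at 38.2 and 36.1 CPM in Shh null and at 32.1 and 31.4 CPM in wild type. Rlim, which encodes a ubiquitin ligase that acts on LIM cofactors, was at 168 and 184 CPM in Shh null and at 217 and 222 CPM in wild type (adjusted p = 0.122); it is X-linked. Ssbp3 was called higher without wild type 1 alone (adjusted p = 0.000222; 0.188 with all libraries). Ssbp2, Ssbp3, Lmo3, Lmo4 and Rlim are named after their values were seen.

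**Figure D4:**
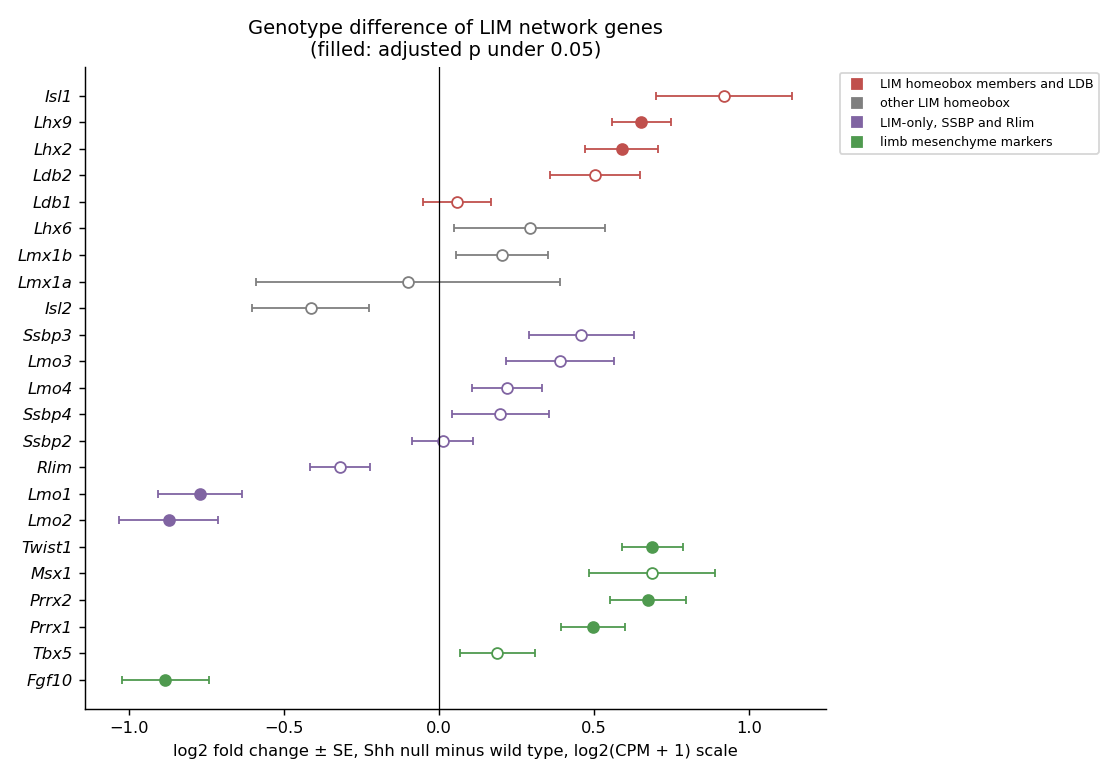
The x axis gives the log2 fold change ± SE (Shh null minus wild type, n = 2 each) of the 5 members, the other LIM homeobox genes, the LIM-only, SSBP and Rlim genes, and limb mesenchyme markers. Filled points passed an adjusted p of 0.05; Lhx2, Lhx9, Twist1, Prrx1 and Prrx2 lie right of 0 and Lmo1, Lmo2 and Fgf10 left of it.

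The called signalling genes on either side of Lhx2 and Lhx9 were lower in Shh null. Of 12 tested genes of the loop between ridge and mesenchyme, limma called 6 lower (Fgf4, Grem1, Hand2, Fgf8, Shh and Fgf10) and 0 higher and left 6 uncalled, with a median log2 fold change of −0.65. At an unadjusted p under 0.05, limma had 8 of the 12 lower and 2 higher, against 9.02% and 9.50% of tested genes. The 2 higher were Msx1 (log2 fold change 0.69) and Gli3 (0.23). Many genes of this list were chosen as known to depend on Shh, so its direction is not independent evidence. The Shh call was lost on leaving out Shh null 1 (limma adjusted p = 0.0693) or Shh null 2 (0.0767). Grem1, the BMP antagonist gene, was at 5.56 and 6.04 CPM in Shh null and at 37.9 and 33.6 CPM in wild type. Hand2, a posterior factor gene, was at 14.1 and 10.2 CPM in Shh null and at 55.7 and 52.6 CPM in wild type. Fgf8, the ridge growth factor gene, was at 5.23 and 10.3 CPM in Shh null and at 30.2 and 21.3 CPM in wild type, and lost its call with Shh null 1 left out (limma adjusted p = 0.114). Fgf4 had 1 and 3 reads in Shh null and 350 and 178 reads in wild type, and passed the filter through wild type only. Etv4 and Etv5, mesenchymal readouts of FGF signalling named after their values were seen, were not called (adjusted p = 0.0978 and 0.201). Etv4 was at 34.5 and 39.5 CPM in Shh null and at 52.5 and 47.4 CPM in wild type.

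The genes with the most similar pattern were taken by the smallest Euclidean distance between mean-centred log2(CPM + 1) profiles over the 4 libraries, among 12445 tested genes. For Lhx2 these were Zbtb8b (3.65 and 3.61 CPM in Shh null, 1.68 and 2.37 CPM in wild type; distance 0.0440) and Nckap1l (distance 0.0442). For Lhx9 they were Tmem25 (distance 0.0395) and Loxl1 (distance 0.0535), and for Isl1 Mc4r (0.0694) and Tmem26 (0.0803). Tmem26 was the most abundant of these 6, at 48.1 and 35.3 CPM in Shh null and at 24.0 and 20.4 CPM in wild type, and was called higher (limma adjusted p = 0.0221). For Ldb1 the nearest were Prkacb (0.0141) and Ankrd50 (0.0184), and for Ldb2 Lacc1 (0.0217) and Tas1r1 (0.0414). The distance between Lhx2 and Lhx9 was 0.165, between Lhx2 and Ldb2 0.193, and between Lhx9 and Isl1 0.474. Over 4 libraries many genes share a pattern by this measure.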

How the data were processed

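Forelimb RNA was extracted with TRIzol and sequenced on Illumina libraries, per the labels' protocols. Samples were grouped by genotype label and numbered by title. Per the submitters' processing notes, TopHat2 2.0.9, SAMtools, HTSeq 0.5.4p5, edgeR 3.4.2 and mm10 were used; the sources used here do not give their roles, the annotation or the strandedness. The authors deposited a normalized signal per gene and library; all values (100%, tolerance 0.001 reads) were whole multiples of a column's smallest value, and TMM scaling of the recovered reads returned the deposited scale, so the signal is TMM-scaled CPM. A read was worth 0.0351 to 0.0551 CPM. The authors' deposited table of log2 fold changes, p-values and false discovery rates is quoted by name; 17689 of its genes matched.

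Genes of at least 1 CPM in at least 2 libraries (13224; 4488 were below) were fitted as log2(CPM + 1) with limma 3.58.1 (R 4.3.3, trended eBayes), genotype as the only term, adjusted by Benjamini-Hochberg over all; 0.05 was the threshold. Alternatives included edgeR 4.0.16 and DESeq2 1.42.0 on recovered reads. Only the limma fit was tested on simulated data, with changes larger than those of Lhx2 and Lhx9 and in genes of higher CPM than Isl1. Exon lengths are from GENCODE M21 (mm10) and promoters from RefSeq (GRCm38.p6); 4 of the 5 genes had a promoter, Ldb2 being the other. Named genes were the 5 members, up to 4 called genes of each list (or the 2 with the largest difference), the 2 nearest patterns of each member and Shh; all other genes, marker genes, Tbx5 and Pprc1 included, were named outside this rule with their values known. Members, lists and rules were chosen with earlier results of these data known. The interval on the Isl1 read ratio covers counting error only; those on log2 fold changes come from limma's estimate of the spread between libraries.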

Additional observations from a re-analysis of the deposited data

How the results depend on the processing

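Across 9 alternatives with all libraries (scalings, pseudocounts, filters, tools and a replicate block), each of the 5 genes kept a positive log2 fold change. The filters and the block leave the fitted log2 fold change as it was, so they could alter only the adjusted p. Isl1 ranged from 0.42 to 1.34. Lhx9 was called in all 9 (0.64 to 0.78) and Lhx2 in 8 (0.56 to 0.64), the exception being no filter (0.59, adjusted p = 0.0638), where genes called fell to 79 higher and 91 lower, against 164 and 164, and no LIM-only or other LIM homeobox gene (0) was called, against 2. DESeq2 called 253 higher and 273 lower. With the replicate block Isl1 was called (0.92, adjusted p = 0.0207); the block changed no other call of the 5 genes. The labels do not say that the numbers pair the libraries. The correlation of same-numbered deviations was −0.20. With 2 libraries a group, the crossed correlation is the same value with its sign turned, so this cannot decide whether libraries are paired. A crossed block, chosen after seeing the data, called 641 higher and 745 lower. Leaving out each library in turn, calls ranged from 15 to 386 higher and from 41 to 416 lower, and from 0 to 4 in the LIM network; the smallest counts came without Shh null 1, where 1 library stands for its group and is assumed to vary like the other group. The log2 fold changes ranged from 0.44 to 0.73 for Lhx2, 0.61 to 0.69 for Lhx9, 0.66 to 1.18 for Isl1, 0.40 to 0.61 for Ldb2 and −0.059 to 0.17 for Ldb1, the Ldb1 sign turning without wild type 1 (−0.0033) and without Shh null 1 (−0.059). The Lhx2 to Lhx9 log2 ratio differed by −0.17 to 0.049 between groups in these fits. The cause of these changes was not tested. Isl1 had the fewest reads of the 5 genes, 23 in wild type 2.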
